A study of Mus musculus with 27 samples.

Results

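The 10 genes described here, Pdgfra, Cspg4, Vcan, Ptprz1, Gpr17, Neu4, Lhfpl3, C1ql1, Tnr and Sox6, are used as markers of oligodendrocyte precursors. They were taken by symbol from the deposited count table. All 10 were found among its 39338 genes and added sequences, all 10 passed the filter on low counts with which 21768 genes were tested, and 9 carry the authors' mark of a kept gene, the exception being Neu4.

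Oligodendrocyte precursors, also called NG2 glia, divide and migrate throughout the adult brain and give rise to the oligodendrocytes that wrap axons in myelin. Platelet-derived growth factor, made by neurons and astrocytes, acts on them through the receptor Pdgfra and keeps them dividing. On differentiation they switch off Pdgfra and Cspg4, pass through a stage marked by Gpr17 and Bcas1, and then turn on the myelin genes. Several of these genes are not particular to precursors: Ptprz1 is also expressed by astrocytes, Cspg4 by pericytes, Sox6 by interneurons from the medial ganglionic eminence (MGE), and Tnr and Lhfpl3 by neurons.

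The study asked whether a Cas13 RNA nuclease can reverse changes in gene expression in a mouse model of C9ORF72 amyotrophic lateral sclerosis. C9-BACexp mice carry a bacterial artificial chromosome with the human C9ORF72 gene and its expanded repeat, and their C57BL/6J littermates were the wild-type controls. All 27 mice received, in the motor cortex, an adeno-associated virus (PHP.eB) for EGFP-KASH, a green fluorescent protein tethered to the outer nuclear membrane. RNA of the sorted EGFP-KASH+ nuclei was sequenced, with 1 library per mouse.

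Each genotype had 3 treatments: EGFP-KASH alone (called EGFP-KASH only), a nuclease with a non-targeted crRNA (NTG), or the nuclease with crRNA-13, which targets C9ORF72. For C9-BACexp they held 3, 6 and 6 mice, and for C57BL/6J 4, 5 and 3. Per the study's methods, NTG and crRNA-13 were given with the high-fidelity nuclease RfxCas13d-N2V8 (the labels name RfxCas13d for NTG), mice were injected at an age of 6 weeks, and nuclei were sorted 2 months later; the age and dose of the mice with EGFP-KASH only were not given in the sources used here. The CAG promoter that drove EGFP-KASH and the nuclease is not restricted to a cell type, the study saw EGFP-KASH largely in neurons, and the labels call the cells primary neurons. In such bulk samples fewer nuclei of a type and less RNA per nucleus cannot be told apart.

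Totals ran from 21508829 to 36777972 counts per library (median 29001126). Human C9ORF72 transcripts came to 63.4 to 104 CPM of total counts in the 15 C9-BACexp libraries, and to 0 in 11 of 12 C57BL/6J libraries, with 16.1 counts (0.446 CPM) in C57BL/6J crRNA-13 replicate 5. Markers of striatal projection neurons were highest in C9-BACexp NTG replicate 6 (8590 CPM summed over 12 genes) and C9-BACexp EGFP-KASH only replicate 3 (4060 CPM), where the other 25 libraries lay between 697 and 3490 CPM. Mature oligodendrocyte markers were highest in C9-BACexp crRNA-13 replicate 1 (6050 CPM summed over 20 genes). The other CPM values here are counts per 1e6 after scaling by the trimmed mean of M values (TMM).

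The markers that define precursors had low counts. Pdgfra, the platelet-derived growth factor receptor alpha (chromosome 5, 75311994 to 75358876 of GRCm39), had a median of 34.7 counts per library and a mean of 1.23 CPM. Cspg4, the NG2 proteoglycan (chromosome 9, 56772317 to 56807187), had a mean of 1.49 CPM, and Gpr17, a G protein-coupled receptor of committed precursors (chromosome 18, 32076050 to 32082888), one of 1.09 CPM. Lowest were C1ql1, a secreted ligand of the adhesion receptor Adgrb3 (chromosome 11, 102829755 to 102837610, mean 0.458 CPM), and Neu4, a sialidase (chromosome 1, 93948173 to 93956056, mean 0.207 CPM). C1ql1 had fewer than 3 counts in 2 libraries and Neu4 in 4.

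The other 5 genes were abundant. Vcan, the matrix proteoglycan versican (chromosome 13, 89803431 to 89890814), averaged 12.9 CPM, and Ptprz1, a receptor-type protein tyrosine phosphatase (chromosome 6, 22875358 to 23054236), 39.2 CPM. Sox6, a SOXD transcription factor (chromosome 7, 115070106 to 115638860), averaged 107 CPM, and Lhfpl3, a tetraspan membrane protein (chromosome 5, 22951057 to 23480611), 183 CPM. Tnr, the perineuronal net glycoprotein tenascin-R (chromosome 1, 159351339 to 159759299), was at 912 CPM. Per kilobase of gene span, the scale on which levels of different genes may be compared since unspliced transcripts were counted, Tnr was at 2.24 CPM, Lhfpl3 at 0.345, Ptprz1 at 0.219, Sox6 at 0.188, Gpr17 at 0.160, Vcan at 0.147, C1ql1 at 0.0583, Cspg4 at 0.0428, Neu4 at 0.0263 and Pdgfra at 0.0262 CPM per kilobase. Pdgfra and Neu4 were thus lowest per length of gene span and Tnr highest. Per kilobase of exon Neu4 was lowest (0.0375 CPM, Pdgfra 0.0998) and Tnr again highest (67.4 CPM). A level summed over the list (944 to 1480 CPM in single libraries) was mostly Tnr.

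**Figure D1:**
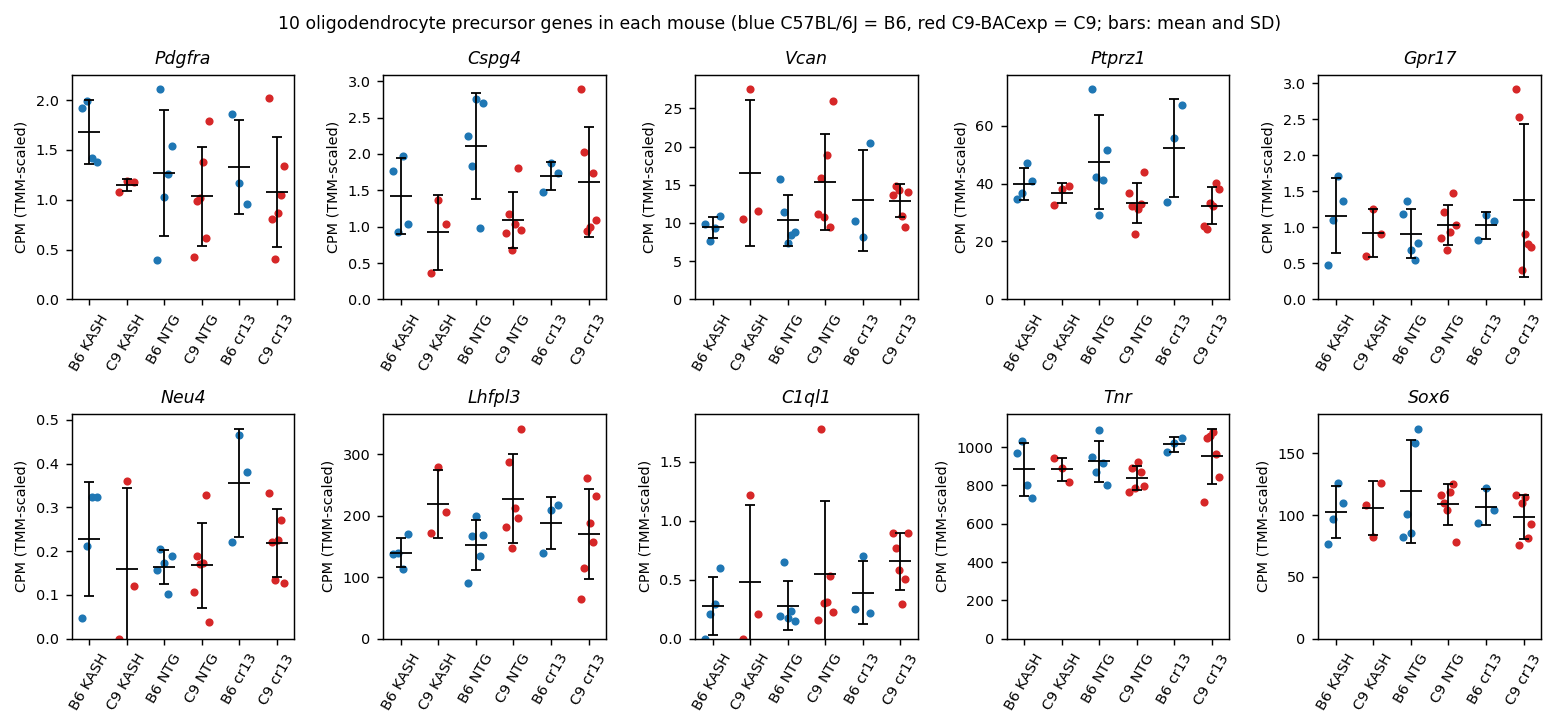
TMM-scaled CPM of each of the 10 genes in each mouse (points, blue for C57BL/6J and red for C9-BACexp; KASH is EGFP-KASH only, cr13 is crRNA-13), with group means and standard deviations (error bars end at 0 where the mean less the SD is below it). Ptprz1 in the C9-BACexp mice lies between 22.7 and 44.1 CPM in all 3 treatments, and Gpr17 at 2.92 and 2.53 CPM in 2 C9-BACexp crRNA-13 mice.

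The comparison of C9-BACexp with C57BL/6J mice asks what the transgene changes. Averaged over the 3 treatments, Ptprz1 and Cspg4 were lower in C9-BACexp mice, by 0.41 and 0.64 on the log2 scale, and no other gene of the 10 passed. Of all genes tested, 9.76% were called on this average, and 4.79% were called lower. The single treatments were uneven, from -0.68 to -0.11 for Ptprz1 and from -0.94 to -0.18 for Cspg4. In single treatments, Ptprz1 fell with crRNA-13 (1.08% of all genes were called) and none passed with NTG (6.59%) or EGFP-KASH only (2.86%). These 3 calls came from the edgeR fit with 4 factors of unwanted variation, estimated from residuals. Without the factors edgeR called none of the 10 in any genotype comparison, and 0.0276% (NTG), 0.0184% (crRNA-13), 0.0184% (EGFP-KASH only) and 1.60% (average) of all genes. The genes among the 10 with an unadjusted p under 0.05 then numbered 3, 1, 1 and 3, beside 14.1%, 5.17%, 7.94% and 17.1% of all genes. DESeq2 without factors kept 1 call, that of Ptprz1 on average (adjusted p = 0.0337).

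Ptprz1 encodes a phosphatase whose extracellular domain binds pleiotrophin and contactins. With crRNA-13 its level was 33.8, 55.8 and 67.0 CPM in the 3 C57BL/6J mice, and 24.4, 32.8 and 40.2 CPM (lowest, median, highest) in the 6 C9-BACexp mice. The ranges overlapped through C57BL/6J replicate 1 alone, which lay inside the range of the C9-BACexp mice.

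The log2 fold change of Ptprz1 with crRNA-13 was -0.68 (standard error, SE, 0.17, 95% interval -1.04 to -0.32, adjusted p = 0.0365 in edgeR's quasi-likelihood test with Benjamini-Hochberg adjustment). In that comparison 0.639% of all genes tested were called lower. The genotypes did not overlap for 1.74% of all genes with crRNA-13 and 2.76% with NTG, and for none of the 10. The call rests on few libraries: without C57BL/6J crRNA-13 replicate 5 the log2 fold change was -0.47 (adjusted p = 0.252), and without replicate 2 it was -0.60 (0.109). Replicate 5 had the highest Ptprz1 level of its group (67 CPM). It was also the only C57BL/6J library with human C9ORF72 counts (16.1), and the source of those counts was not tested. Leaving out replicate 1 or 2 of the C9-BACexp crRNA-13 mice gave -0.62 (adjusted p = 0.0698) or -0.61 (0.0886). Without the 4 factors it was -0.69 (adjusted p = 0.432), and limma-trend, the method the study names, gave -0.65 with them (adjusted p = 0.0528).

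With NTG, Ptprz1 was at 29.2, 41.1, 42.3, 51.5 and 72.6 CPM in C57BL/6J mice and at 22.7, 32.6 and 44.1 CPM (lowest, median, highest) in the 6 C9-BACexp mice. The difference of -0.44 (SE 0.15) did not pass (adjusted p = 0.133 in edgeR). With EGFP-KASH only, 34.8, 36.8, 40.9 and 47.1 CPM in C57BL/6J stood beside 32.6, 38.3 and 39.1 CPM in C9-BACexp mice, a log2 fold change of -0.11 (95% interval -0.51 to 0.29). The genotype effect with crRNA-13 differed from that with NTG by -0.24 (95% interval -0.72 to 0.25, adjusted p = 0.773), so no difference between the treatments was shown.

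Averaged over the 3 treatments, the log2 fold change of Ptprz1 was -0.41 (SE 0.10, adjusted p = 0.00736 in edgeR). This average uses the same libraries as the 3 single comparisons. The call was kept in 27 of 27 fits that each left out 1 library, with log2 fold changes of -0.49 to -0.34. Without factors it was -0.44 (adjusted p = 0.0833 in edgeR).

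Cspg4 encodes the NG2 proteoglycan, which precursors share with pericytes. With NTG it was at 0.985, 1.84, 2.24, 2.70 and 2.76 CPM in C57BL/6J mice and at 0.682, 0.992 and 1.81 CPM (lowest, median, highest) in the 6 C9-BACexp mice. Of the 5 C57BL/6J mice, 4 lay above every C9-BACexp mouse and 1 among them. The log2 fold change was -0.94 (SE 0.32) and did not pass (adjusted p = 0.128 in edgeR).

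With EGFP-KASH only, Cspg4 was at 0.932, 1.03, 1.77 and 1.97 CPM in C57BL/6J and at 0.360, 1.03 and 1.37 CPM in C9-BACexp mice (log2 fold change -0.81, 95% interval -1.68 to 0.07). With crRNA-13, 1.48, 1.74 and 1.87 CPM in C57BL/6J lay within the 0.945 to 2.89 CPM of the C9-BACexp mice (log2 fold change -0.18, 95% interval -0.95 to 0.59). Over the 3 treatments the change was -0.64 (SE 0.21, adjusted p = 0.0436 in edgeR). This call was kept in 9 of 27 fits without 1 library, where it ran from -0.76 to -0.46, and ended with the replicate number as a block (-0.57, adjusted p = 0.188), without factors (-0.55, adjusted p = 0.247) and in limma-trend with the 4 factors (-0.58, adjusted p = 0.0535).

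Of all genes tested, 4.79% were called lower and 9.76% in either direction in the averaged comparison, against 2 of the 10 here, both lower. An unadjusted p under 0.05 was found for 4 of the 10 and 29.2% of all genes. Pericyte markers, which share Cspg4 as an expressed gene, summed over 6 genes to 9.17 to 12.3 CPM in C9-BACexp and 12.3 to 17.2 CPM in C57BL/6J mice with NTG. Vtn, a matrix glycoprotein of pericytes, fell with NTG (log2 fold change -1.22, adjusted p = 0.0485) and over the 3 treatments (-0.80, adjusted p = 0.0159), and no other of the 6 tested pericyte genes passed in either. Without factors in edgeR both calls of Vtn ended (adjusted p = 0.332 and 0.0670). Astrocyte markers summed over 12 genes to 714 to 1080 CPM in C9-BACexp and 872 to 1000 CPM in C57BL/6J mice with NTG, and to 759 to 991 and 803 to 1210 CPM with crRNA-13. Over the 3 treatments 9 of 12 astrocyte genes fell and none rose (median log2 fold change -0.46), among them Aqp4, the water channel of astrocyte endfeet (-0.83), and Slc1a3, a glutamate transporter (-0.46). Without factors 3 of the 12 fell, Aqp4 (adjusted p = 0.0474) and Slc1a3 (0.0394) among them. From mouse to mouse within groups, Ptprz1 and the astrocyte sum had r = 0.51 and rho = 0.49 over 27 libraries (permutation p = 0.0145 and 0.0205, adjusted p = 0.142 and 0.201, r = 0.33 without the 2 libraries farthest from the median). Ptprz1 had larger coefficients with other lists, all negative: r = -0.68 and rho = -0.61 with SOX factors (permutation p = 0.00252 and 0.00226, adjusted p = 0.0709 and 0.0712, r = -0.55 without 2), r = -0.60 and rho = -0.58 with genes of committed precursors (p = 0.00228 and 0.00642, adjusted p = 0.0709 and 0.101, r = -0.55 without 2), and r = -0.57 and rho = -0.53 with hyalectans, tenascins and link proteins (p = 0.00823 and 0.0142, adjusted p = 0.116 and 0.160, r = -0.43 without 2). For Cspg4 and the pericyte sum r was 0.56 and rho 0.59 (permutation p = 0.00375 and 0.00308, adjusted p = 0.0844 and 0.0770, r = 0.54 without 2). The part of these cells in the genotype differences was not tested. A list sum follows its most abundant genes. In C57BL/6J NTG replicate 5 the sum of the committed list was 1400 CPM, with Bcas1 at 55.4 and Enpp6 at 23.7 CPM.

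**Figure D2:**
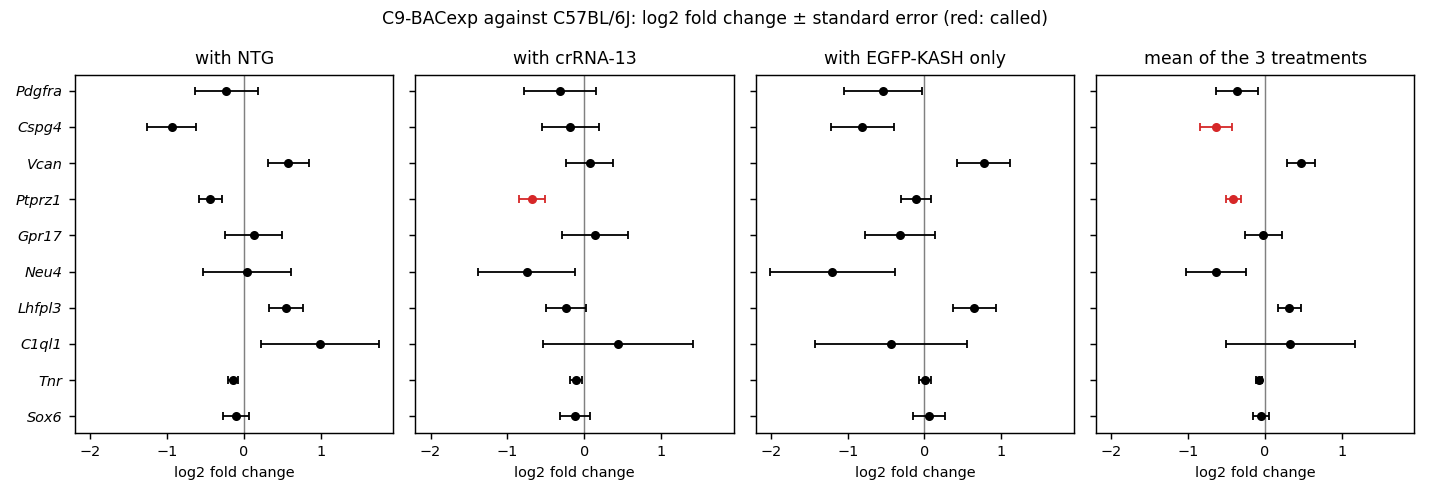
Log2 fold change of C9-BACexp against C57BL/6J mice (points) with its standard error (bars) for the 10 genes, with NTG, crRNA-13, EGFP-KASH only and averaged over the 3 treatments; red marks a call at a fold change over 1.2 and adjusted p under 0.05. The red points are Ptprz1 with crRNA-13 (-0.68) and Ptprz1 (-0.41) and Cspg4 (-0.64) on average, and the bars of C1ql1 and Neu4 are the widest.

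Vcan and Lhfpl3 had higher means in C9-BACexp mice with NTG and with EGFP-KASH only, and neither passed. Versican is a hyaluronan-binding proteoglycan of the matrix around precursors. With NTG it was at 7.41, 8.39, 8.83, 11.4 and 15.7 CPM in C57BL/6J and at 9.5, 13.6 and 26.0 CPM (lowest, median, highest) in the 6 C9-BACexp mice (log2 fold change 0.58, SE 0.27, adjusted p = 0.297 in edgeR). With EGFP-KASH only it was at 7.58, 9.36, 9.92 and 10.9 CPM in C57BL/6J and at 10.5, 11.6 and 27.5 CPM in C9-BACexp mice (log2 fold change 0.77, adjusted p = 0.254). The 2 highest Vcan levels of the series, 26.0 and 27.5 CPM, were those of C9-BACexp NTG replicate 6 and C9-BACexp EGFP-KASH only replicate 3, the libraries with the most striatal marker RNA, whose part in this was not tested. With crRNA-13 Vcan was at 8.12, 10.2 and 20.5 CPM in C57BL/6J and at 9.49, 13.9 and 14.9 CPM (lowest, median, highest) in C9-BACexp mice, with a log2 fold change of 0.07 (95% interval -0.60 to 0.73). Averaged, the change of Vcan was 0.47 (SE 0.18, adjusted p = 0.0784).

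Lhfpl3 was at 90.8, 135, 167, 169 and 199 CPM in C57BL/6J mice with NTG and at 148, 204 and 342 CPM (lowest, median, highest) in C9-BACexp mice (log2 fold change 0.55, SE 0.22, adjusted p = 0.224 in edgeR). With EGFP-KASH only, 113, 137, 139 and 171 CPM in C57BL/6J stood below 172, 206 and 280 CPM in C9-BACexp mice (log2 fold change 0.65, adjusted p = 0.251). With crRNA-13 the levels, 139, 209 and 217 CPM in C57BL/6J and 65.3, 173 and 261 CPM (lowest, median, highest) in C9-BACexp mice, overlapped (log2 fold change -0.24, adjusted p = 0.712). The genotype effect with crRNA-13 less that with NTG was -0.79 (95% interval -1.50 to -0.07), with an adjusted p of 0.418, which does not pass. The 2 lowest C9-BACexp crRNA-13 values, 65.3 and 115 CPM, came from replicates 1 and 2, the libraries of that group with the most mature oligodendrocyte RNA.

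With EGFP-KASH only, the values of Lhfpl3 and Pdgfra did not overlap between genotypes, 2 of the 10 genes, where 6.13% of all genes tested did not. Pdgfra was at 1.38, 1.42, 1.92 and 1.99 CPM in C57BL/6J and at 1.08, 1.18 and 1.19 CPM in C9-BACexp mice, a log2 fold change of -0.54 with a 95% interval of -1.62 to 0.54 (adjusted p = 0.661 in edgeR). With NTG its ranges, 0.393 to 2.11 CPM in C57BL/6J and 0.427 to 1.79 CPM in C9-BACexp mice, covered each other almost entirely (log2 fold change -0.23, 95% interval -1.09 to 0.63). Averaged over treatments the log2 fold change of Pdgfra was -0.36 (95% interval -0.92 to 0.20, adjusted p = 0.403).

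Tnr and Sox6 did not pass in any genotype comparison. Tnr, a protein of the nets around interneurons, was at 801, 871, 919, 948 and 1090 CPM in C57BL/6J with NTG and at 768, 835 and 922 CPM (lowest, median, highest) in C9-BACexp mice (log2 fold change -0.14, 95% interval -0.28 to 0.00). Averaged over treatments it was -0.08 (95% interval -0.17 to 0.01, adjusted p = 0.245 in edgeR). Sox6, which holds precursors and MGE interneurons in their identity, was at 81.9, 85.1, 101, 158 and 170 CPM in C57BL/6J and at 77.8, 113 and 125 CPM in C9-BACexp mice with NTG (log2 fold change -0.10, 95% interval -0.45 to 0.25). The averaged change of Sox6 was -0.05 (95% interval -0.28 to 0.18).

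C1ql1 and Neu4 had too few counts for a comparison of moderate effects. With NTG, C1ql1 was at 0.150, 0.172, 0.196, 0.238 and 0.647 CPM in C57BL/6J and at 0.160, 0.304 and 1.78 CPM (lowest, median, highest) in C9-BACexp mice, with a log2 fold change of 0.99 and a 95% interval of -0.64 to 2.62. The averaged change of Neu4 was -0.64 (95% interval -1.47 to 0.19, adjusted p = 0.301 in edgeR). The sums of counts over the 6 C9-BACexp and 5 C57BL/6J mice with NTG were 28.4 and 23.4 for Neu4.

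Over all 10 genes with NTG, 5 log2 fold changes were above 0 and 5 below, with a median of -0.03, beside 0.02 over all genes tested. None of the 10 was called where 6.59% of all genes were, and 4 had an unadjusted p under 0.05, beside 26% of all genes. DESeq2 and limma, with or without the factors, also called none of the 10 in this comparison. With EGFP-KASH only the median was -0.21, none was called (2.86% of all genes) and 2 had an unadjusted p under 0.05 (19% of all genes). With crRNA-13 the median was -0.15, 1 was called (1.08% of all genes in either direction) and the same number had an unadjusted p under 0.05 (12.5% of all genes). The difference of the genotype effect between crRNA-13 and NTG was called for none of the 10 and 0.00459% of all genes, with 1 of the 10 (Lhfpl3) and 10.5% of all genes at an unadjusted p under 0.05.

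Gpr17 marks precursors that have left the cycle and begun to differentiate, and it split the C9-BACexp crRNA-13 mice. Their values were 0.405, 0.734, 0.775, 0.903, 2.53 and 2.92 CPM, and those of the C57BL/6J crRNA-13 mice were 0.820, 1.09 and 1.17 CPM. The values of 2.53 and 2.92 CPM belong to replicates 2 and 1, and no other library of the series exceeded 1.71 CPM. The genotype effect with crRNA-13 was 0.14 (SE 0.43, adjusted p = 0.920 in edgeR) and the averaged one -0.02 (95% interval -0.52 to 0.49).

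Replicates 1 and 2 of the C9-BACexp crRNA-13 mice also held the most mature oligodendrocyte RNA of that group, at 6050 and 3080 CPM summed over 20 genes, beside 868 to 1490 CPM in the other 4. The same libraries led in Sox10, a transcription factor of the whole lineage (72.7 and 33.5 CPM, beside 11.2 to 15.9 CPM), in Olig2 (11.1 and 6.41 CPM, beside 2.20 to 3.38 CPM) and in Bcas1, which marks newly formed oligodendrocytes (194 and 115 CPM, beside 30.1 to 65.5 CPM). They led in Cspg4 as well (2.89 and 2.02 CPM, beside 0.945 to 1.74 CPM). Pdgfra was at 2.02 CPM in replicate 1 and 0.806 CPM in replicate 2, where the others had 0.405 to 1.34 CPM. They were highest of the 6 in summed endothelial markers (45.9 and 65.2 CPM, beside 28.9 to 38.8 CPM) and microglial markers (89.2 and 76.6 CPM, beside 45 to 55.5 CPM) too. Over the 27 libraries, with group means taken out, Gpr17 had r = 0.58 and rho = 0.66 with the endothelial sum (permutation p = 0.00588 and 0.00156, adjusted p = 0.0945 and 0.0712, r = 0.49 without the 2 farthest libraries). With the mature oligodendrocyte sum r was 0.52 and rho 0.42 (permutation p = 0.0327 and 0.0684, adjusted p = 0.263 and 0.453, r = 0.46 without 2). How these 2 mice came to differ was not tested.

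**Figure D3:**
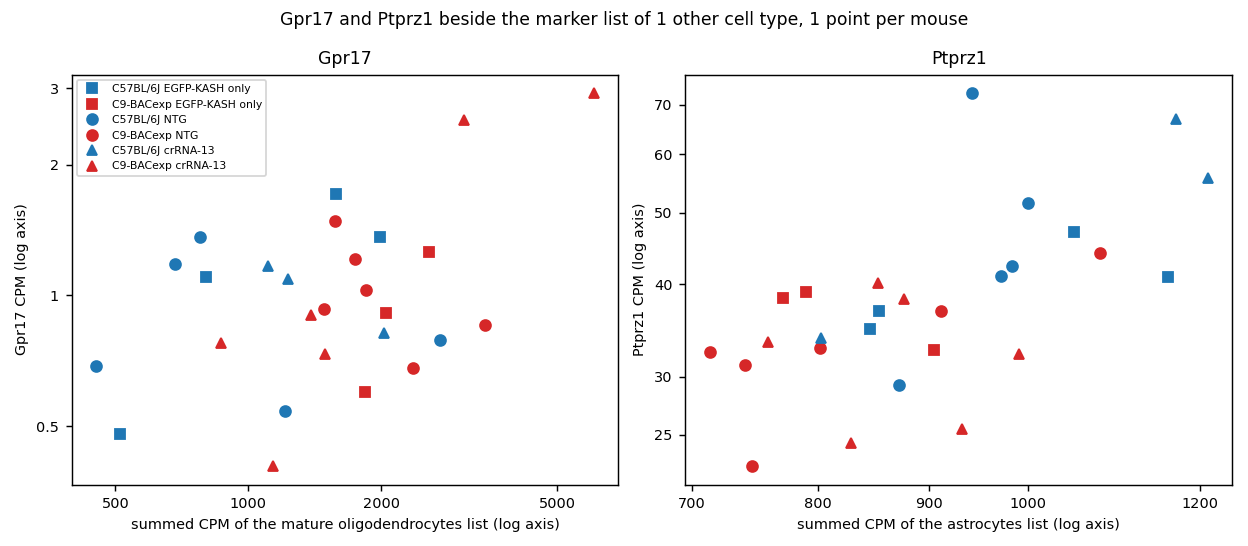
Left, Gpr17 (CPM, log axis) against the summed CPM of 20 mature oligodendrocyte genes (log axis); right, Ptprz1 against the summed CPM of 12 astrocyte genes, with 1 point per mouse, genotype by colour and treatment by shape. The red triangles at the top right of the Gpr17 panel are C9-BACexp crRNA-13 replicates 1 and 2.

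The effect of crRNA-13, and of the nuclease itself, was compared within each genotype. None of the 10 genes passed in any of these 6 comparisons. In C9-BACexp mice 0.482% of all genes were called between crRNA-13 and NTG, 0.910% between crRNA-13 and EGFP-KASH only, and 0.0322% between NTG and EGFP-KASH only. In C57BL/6J mice the shares were 0% (at the stricter limits the study set for this comparison), 0.404% and 0% in the same order. The 3 comparisons within a genotype share libraries. DESeq2 and limma, with the 4 factors and without them, called none of the 10 in these comparisons either.

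The smallest adjusted p of crRNA-13 against NTG in C9-BACexp mice was that of Tnr. Its values were 714, 1000 and 1080 CPM (lowest, median, highest) with crRNA-13 and 768, 835 and 922 CPM with NTG, which overlap (log2 fold change 0.17, SE 0.06, adjusted p = 0.174 in edgeR). Lhfpl3 followed, with 65.3, 173 and 261 CPM beside 148, 204 and 342 CPM (log2 fold change -0.50, adjusted p = 0.245). Of the 10 genes, 2 had an unadjusted p under 0.05, beside 10.3% of all genes. Against EGFP-KASH only, 1 of the 10 had one with crRNA-13 (Cspg4, log2 fold change 0.87, adjusted p = 0.271) and none with NTG, beside 12.1% and 11.2% of all genes. For Ptprz1 the difference was -0.07 (95% interval -0.37 to 0.24), for Pdgfra 0.02 (-0.80 to 0.84) and for Cspg4 0.46 (-0.18 to 1.1).

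In C57BL/6J mice, Neu4 with crRNA-13 (0.221, 0.381 and 0.466 CPM) lay above NTG (0.102, 0.157, 0.172, 0.188 and 0.204 CPM) without overlap, 1 of the 10 genes, where 2.78% of all genes did not overlap. The log2 fold change of 1.13 had a 95% interval of -0.27 to 2.53 (adjusted p = 0.562 in edgeR), and the counts behind it sum to 31.0 and 23.4 over the groups. Tnr was at 975, 1020 and 1050 CPM with crRNA-13, beside 734, 802, 972 and 1030 CPM with EGFP-KASH only (log2 fold change 0.21, adjusted p = 0.338), the 1 of the 10 with an unadjusted p under 0.05, beside 11.2% of all genes. None of the 10 had an unadjusted p under 0.05 for crRNA-13 against NTG or for NTG against EGFP-KASH only, beside 11.1% and 7.86% of all genes.

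Lists of later stages of the lineage were read beside the 10 genes. With NTG, 4 of 19 other precursor markers rose and none fell (median log2 fold change 0.47), as did 3 of 15 genes of committed precursors and newly formed oligodendrocytes (0.32) and 17 of 20 mature genes (1.14); for the 10 genes none passed (-0.03). With crRNA-13, 0 of 19 (median 0.22), 0 of 15 (0.13, with 1 lower) and 1 of 20 (0.38) rose, and with EGFP-KASH only 3 of 19 (0.33), 2 of 15 (0.20) and 9 of 20 (1.03). Over the 3 treatments 7 of 19, 6 of 15 and 20 of 20 rose, 1 of the 15 fell, and of the 10 genes 2 fell. Of all genes, 4.01% were called higher with NTG, 0.441% with crRNA-13, 1.59% with EGFP-KASH only and 4.97% over the 3 treatments. Without factors in edgeR the numbers called higher over the 3 treatments were 2 of 19, 2 of 15 and 0 of 20, and none in any single treatment.

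The 4 other precursor markers that rose with NTG were Sox10, Olig1, Olig2 and Xylt1. Sox10, Olig1 and Olig2 are transcription factors that mature oligodendrocytes keep, and Xylt1 starts the glycosaminoglycan chains of proteoglycans. Sox10 was at 2.86, 4.04, 8.27, 13.3 and 17.8 CPM in C57BL/6J and at 15.1 to 32.1 CPM in C9-BACexp mice (log2 fold change 1.47, SE 0.25, adjusted p = 0.00214 in edgeR). The ranges overlapped through C57BL/6J replicate 5 alone, which had the most mature oligodendrocyte RNA of its group (2710 CPM). Olig2 changed by 1.1 (adjusted p = 0.0142), Olig1 by 0.86 (0.00821) and Xylt1 by 0.42 (0.0186). Without factors in edgeR the 4 calls ended, with adjusted p of 0.488 for Sox10, 0.701 for Olig2, 0.871 for Olig1 and 0.732 for Xylt1.

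Among the genes of committed and newly formed cells, Nfasc, an adhesion molecule of the node of Ranvier that neurons also make, rose by 0.53 with NTG (adjusted p = 1.74e-05 in edgeR), Bcas1 by 1.19 (0.000177) and Chn2, a Rac GTPase-activating protein, by 0.87 (0.00364). Itpr2, an inositol trisphosphate receptor that marks committed precursors and is also found in astrocytes, fell over the 3 treatments by 0.53 (adjusted p = 0.000522) and with crRNA-13 by 0.83 (0.00591). Without factors the calls with NTG ended (adjusted p = 0.257 for Nfasc, 0.444 for Bcas1 and 0.764 for Chn2), as did that of Itpr2 with crRNA-13 (0.184), while Itpr2 was still lower over the 3 treatments (-0.49, adjusted p = 0.0330). Nfasc, Sox10, Sox8, Hapln2, Sox6, Sox9, Pdgfrb and Tac1 each stand on 2 of the lists.

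**Figure D4:**
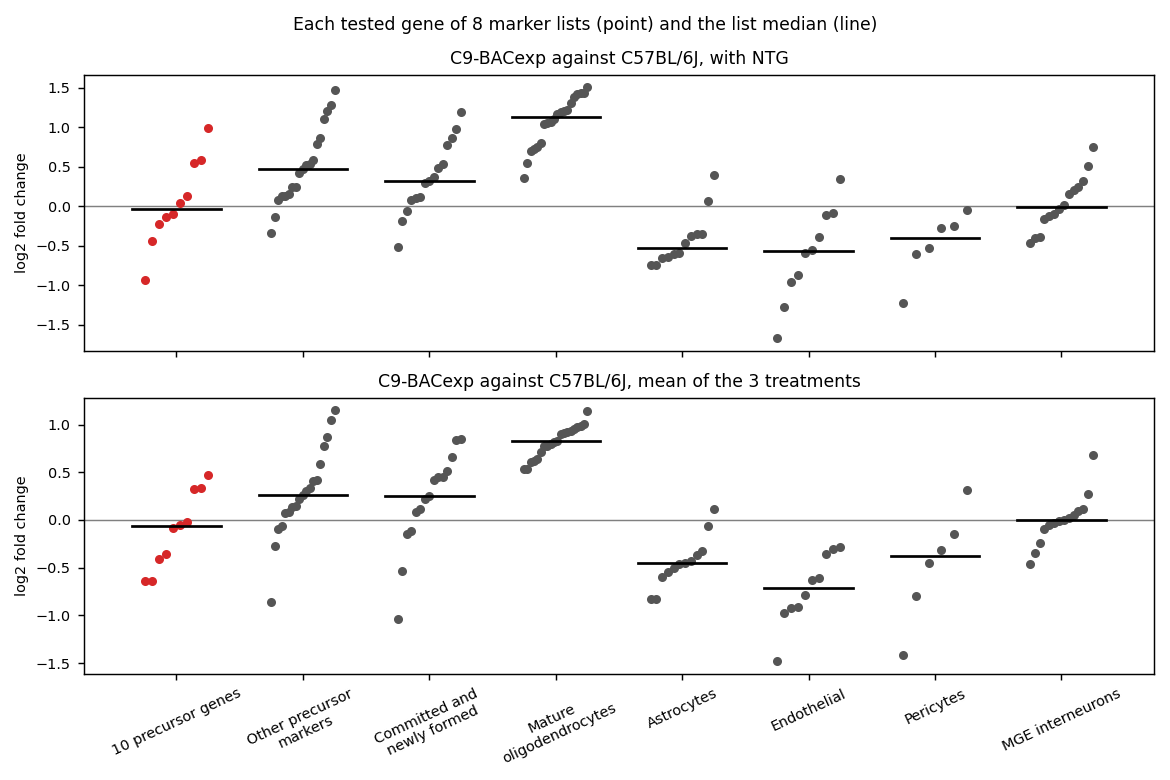
Log2 fold change of C9-BACexp against C57BL/6J mice for each tested gene (points, in ascending order within a list) of 8 marker lists, with the list median as a line, with NTG (top) and averaged over the 3 treatments (bottom). The medians with NTG are -0.03 for the 10 precursor genes, 0.47, 0.32 and 1.14 for the other precursor, committed and mature lists, and -0.53 for astrocytes.

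Genes that work with the 10 were read from lists of ligands, partners and relatives. Of 6 platelet-derived growth factors and receptors none passed in the genotype comparisons. The smallest p with NTG were those of Pdgfd, a ligand of the beta receptor (9.20 ± 5.68 CPM, SD, in 5 C57BL/6J and 3.25 ± 3.67 CPM in 6 C9-BACexp mice, adjusted p = 0.529), and Pdgfrb, the receptor of pericytes (5.69 ± 0.556 and 4.80 ± 1.12 CPM, adjusted p = 0.574). Of 10 hyalectans, tenascins and link proteins, relatives and partners of Vcan and Tnr, Hapln2, a link protein of oligodendrocytes at nodes, rose with NTG (log2 fold change 1.43, adjusted p = 0.00160) and Hapln4, a link protein of perineuronal nets, fell (-0.60, adjusted p = 0.0304). Ncan, a proteoglycan of those nets, rose in C9-BACexp mice with crRNA-13 relative to EGFP-KASH only (0.34, adjusted p = 0.00714). Without factors these calls ended (adjusted p = 0.359 for Hapln2, 0.499 for Hapln4 and 0.605 for Ncan).

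Of 10 ligands and partners of the Ptprz1 extracellular domain, the contactins Cntn4 (-0.55, adjusted p = 0.00216 in edgeR) and Cntn3 (-0.46, adjusted p = 0.0197) fell with NTG, and Nfasc rose. The 5 C57BL/6J mice had 878 ± 96.4 CPM of Cntn4 (SD) and the 6 C9-BACexp mice 594 ± 86.6 CPM, without overlap. Of 8 SOX factors related to Sox6 or to its partners, Sox10 rose and Sox11, a factor of immature neurons, fell (-0.49, adjusted p = 0.0450). Without factors the calls with NTG of Cntn4 (adjusted p = 0.259), Cntn3 (0.480), Nfasc (0.257), Sox10 (0.488) and Sox11 (0.400) ended. None of 4 tested C1q-like proteins and their receptors passed with NTG, and C1ql3 fell over the 3 treatments (-0.28, adjusted p = 0.0472). None of 3 other sialidases passed, and of 11 tested cell cycle genes Ccnd1, the D-type cyclin, fell over the 3 treatments (-0.41, adjusted p = 0.0386). The calls of C1ql3 and Ccnd1 ended without factors (adjusted p = 0.234 and 0.207).

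Lists of other cells the sort could hold gave few calls with NTG. None of 10 endothelial, 5 tested fibroblast or 11 microglial genes passed, 1 of 14 MGE interneuron genes fell (Kcnc2, a potassium channel, -0.47, adjusted p = 0.00517 in edgeR), and 1 of 10 excitatory neuron genes fell (Neurod1, -1.08, adjusted p = 0.0236). Of 12 striatal projection neuron genes 3 rose (Adora2a, Rgs9 and Drd2). The log2 fold change of Adora2a was 3.22 with NTG, 4.7 with crRNA-13, -7.71 with EGFP-KASH only and 0.07 on average. With NTG the 12 genes summed to 1180 to 8590 CPM (median 2080) in C9-BACexp mice, with the highest value in replicate 6. In C57BL/6J mice they summed to 697 to 1720 CPM. Over the 3 treatments 5 of 10 endothelial genes fell, among them Tie1 (-1.48) and Flt1 (-0.63), and of the fibroblast genes Col1a1 fell (-0.78), while 4 striatal genes rose. Without factors none of these lists had a call with NTG, and over the 3 treatments 3 striatal genes, no endothelial and no fibroblast gene passed. With the factors, 2.59% of all genes were called lower and 4.01% higher with NTG, and 4.79% and 4.97% over the 3 treatments.

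The 10 genes did not vary together as 1 set from mouse to mouse, though a few pairs of low-count genes did. With group means taken out, Pearson's r of log2(CPM + 0.5) over the 27 libraries had a median of 0.03 over the 45 pairs and ran from -0.45 to 0.63. It was above 0.5 in 4 pairs, all among the low-count genes Gpr17, Neu4, Cspg4 and C1ql1. Pdgfra was at 0.16 with Gpr17 and 0.09 with Cspg4.

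In all, 225 such relations were computed, 45 between the 10 genes and 180 with the summed CPM of the other lists, each with a two-sided permutation test of 100000 draws within groups. After Benjamini-Hochberg adjustment 6 passed by Pearson's r and none by Spearman's rho. Gpr17 and Neu4 had r = 0.63 (permutation p = 0.0002, adjusted p = 0.0450) and rho = 0.65 (p = 0.00064, adjusted p = 0.0712), with r = 0.58 without the 2 libraries farthest from the median of Neu4. Tnr and the mature oligodendrocyte sum had r = -0.74 (permutation p = 0.00097, adjusted p = 0.0465) and rho = -0.70 (p = 0.00193, adjusted p = 0.0712), and r = -0.60 without the 2 farthest libraries. Tnr had r = 0.69 with the other precursor markers, 0.62 with excitatory neuron markers and 0.76 with C1q-like proteins and their receptors, and Vcan had r = 0.69 with the partners of Ptprz1 (permutation p = 0.00124, 0.00082, 0.00084 and 0.0011, each with an adjusted p of 0.0465). The rho of those 4 was 0.70, 0.59, 0.73 and 0.65 (permutation p = 0.00138, 0.00253, 0.00102 and 0.00253, adjusted p = 0.0712), and r without the 2 farthest libraries 0.68, 0.52, 0.61 and 0.66. All values of a library share its depth and scaling. The sums follow their most abundant genes, which need not be the markers of a stage. In C57BL/6J NTG replicate 5 the other precursor markers summed to 1630 CPM, with Sox10 at 17.8, Olig1 at 9.35 and Olig2 at 3.83 CPM.

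**Figure D5:**
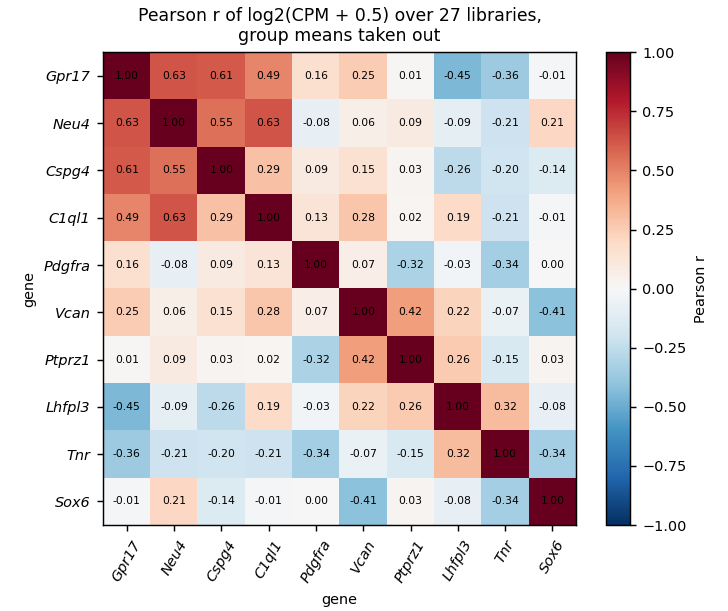
Pearson's r between the 10 genes over 27 libraries after the group means of log2(CPM + 0.5) were taken out, with 1 cell per pair of genes. The 4 cells above 0.5 lie among Gpr17, Neu4, Cspg4 and C1ql1 at the top left, and Gpr17 and Lhfpl3 have the lowest value, -0.45.

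The genes most like the mean of the 10, over the same 27 libraries and among genes of at least 1 CPM, were Ift57 (r = 0.78), Trmt2b (0.73), Mreg (0.71), Nrip1 (0.70), Ankfy1 (0.69), Rel (0.69), Eif1a (0.68), Wdr47 (0.68), Pcm1 (0.67) and Fibcd1 (0.66), none of which is on any list used here. For single genes the highest were Tnr with Neurl1a (0.86), Gpr17 with Aebp2 (0.81), Vcan with Doc2b (0.80), Ptprz1 with Gtpbp10 (0.80), Lhfpl3 with Mroh5 (0.80), Pdgfra with Dnpep (0.79), Neu4 with Tbca (0.79), Sox6 with Cyp4f16 (0.79), Cspg4 with Znrf3 (0.76) and C1ql1 with Rel or Ift57 (0.61). These values are the highest over all such genes and are given as a description.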

How the data were processed

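Mouse motor cortex nuclei (EGFP-KASH+) were profiled by RNA-seq in 27 libraries. The deposited values are expected counts: per the study's methods and the submitters' processing notes, the authors quantified reads with Salmon 1.10.0 against spliced and unspliced transcripts of NCBI Annotation Release 109 (GRCm39), with human C9ORF72 and EGFP-KASH added, and scaled them by length with tximport in R 4.3.1. The study tested with limma-trend and 4 RUVSeq factors. Here the counts were rounded and tested in R 4.3.3 with edgeR 4.0.16 (TMM, minimum count 10 and total 15, robust quasi-likelihood, 1 model of 6 groups with 4 factors from residuals, RUVr), Benjamini-Hochberg adjustment over 5 comparisons jointly (3 genotype comparisons, crRNA-13 against NTG and EGFP-KASH only in C9-BACexp) and within each other comparison. Calls needed a fold change over 1.2 and adjusted p under 0.05. The factors can absorb differences shared by libraries. They were taken from residuals, so they also remove spread between mice within groups, and p-values can come out too small. Among wild-type mice, 7.86% of genes had an unadjusted p under 0.05 for NTG beside EGFP-KASH only, and 3.8% without factors. For crRNA-13 beside NTG the shares were 11.1% and 4.81%, and neither comparison had a call. Values without the factors are therefore given beside the calls. Totals per library leave low genes imprecise. Intervals and p-values of fits with factors cover only the spread between mice that the 4 factors leave. Of the variance of log2(CPM + 0.5) within groups, the factors accounted for 16.9% (Pdgfra) to 67.6% (Tnr) in the 10 genes, and for 51% in Ptprz1. With NTG the SE of Ptprz1 was 0.15 with the factors and 0.2 without them.

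Each group is defined by genotype and treatment of the labels. Alternatives were 0 or 2 factors, limma 3.58.1, DESeq2 1.42.0, other size factors, no filter, another adjustment, the replicate number as a block, an additive model, and single libraries left out. The fits were also run on simulated counts, drawn independently for each library around the gene means. Those counts held no unwanted differences shared by libraries, so they cannot show how the factors act on such differences. Members and lists were chosen with earlier results of these data known. Named were the 10 genes, from each other list the called genes with the smallest p (up to 4 a comparison; 2 by smallest p where none was called), and the genes most correlated with the 10. No 2 libraries were identical (Spearman 0.920 to 0.973).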

Additional observations from a re-analysis of the deposited data

Results flagged for a closer look

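In 40 groups of 4 to 6 libraries (10 genes in 4 groups), a single library stood far from the others 2 times, where chance gives about 1 in 20. Both concern C1ql1, the secreted C1q-like ligand. It was at 1.78 CPM in C9-BACexp NTG replicate 2, beside 0.160 to 0.535 CPM in the other 5 mice. It was at 0.647 CPM in C57BL/6J NTG replicate 2, beside 0.150 to 0.238 CPM in the other 4. The cause was not tested.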

How the results depend on the processing

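Of 247 counts of called genes recomputed over 11 comparisons, 212 stayed within 1.5 times of the value reported and 35 did not. No gene called in the main fit or in an alternative changed direction between them. Genes without a call could change sign. C1ql1 with EGFP-KASH only had a log2 fold change of -0.44 with the factors and 0.76 without them. In 8 comparisons no count moved. In each of these the count was 0 in the main fit, so it could move only upward, and 0% to 2.86% of all genes were called there. With crRNA-13 the count of 1 (Ptprz1) became 0 without factors, with 2 factors, in limma with 4 factors or none, in DESeq2 without factors, and with adjustment within the comparison (adjusted p = 0.0896). It ran from 0 to 1 when single libraries were left out, with 0 for C57BL/6J crRNA-13 replicate 2 or 5 and C9-BACexp crRNA-13 replicate 1 or 2. Averaged over treatments, the count of 2 became 0 without factors and in limma without factors, and 1 (Ptprz1) with 2 factors, in limma with 4, in DESeq2 without factors and with no filter. It ran from 1 to 2 when single libraries were left out, and in 4 of those fits Vcan was called (0.53 to 0.62). With NTG the count of 0 became 1 (Ptprz1, -0.61, adjusted p = 0.0356) without C57BL/6J NTG replicate 3, the range over single libraries being 0 to 1.

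With the replicate block the averaged count was 1 (Ptprz1), and no count in another comparison moved. The numbers do not pair the libraries: deviations of 48 same-numbered pairs correlated with a median of 0 (-0.20 to 0.36, 11 above 0.1), and those of 251 other pairs with a median of 0.

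Fits without 2 libraries of 1 group were chosen after the data were seen. C9-BACexp NTG replicates 1 and 6 held the most striatal marker RNA of their group (2840 and 8590 CPM). Replicate 1 also held its most mature oligodendrocyte RNA (3430 CPM). Leaving out both gave 1 called gene with NTG (Ptprz1, -0.60, adjusted p = 0.0386 in edgeR) and 1 on average. Leaving out C9-BACexp crRNA-13 replicates 1 and 2 (Gpr17) gave 0 with crRNA-13 (Ptprz1 -0.51, adjusted p = 0.158), and on average added Lhfpl3 (0.47, adjusted p = 0.0209). DESeq2 with 4 factors added Vcan on average (0.47, adjusted p = 0.0457). The cause was not tested. Depth limits the values of C1ql1 and Neu4, which had under 3 counts in 2 and 4 libraries.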
